A study of Mus musculus with 36 samples.

Results

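Fatty acid synthesis in the mouse liver was followed through 10 genes, which were listed by name: Srebf1, Thrsp, Acly, Acaca, Acacb, Fasn, Me1, Elovl6, Scd1 and Pnpla3. They are 10 of the 29546 Ensembl gene IDs in the count table, and 9 of them passed the filter on low values, the exception being Pnpla3. The RNA came from livers of C57BL/6 mice in a study of cholestasis, the impaired flow of bile, and was read from its 3' ends by QuantSeq with molecular identifiers. The 3 models were surgical, dietary and drug-induced, each sampled after 7 or 28 days. Ligated bile ducts (BDL7, BDL28) were set against sham operations (SHAM). The bile duct toxicant 3,5-diethoxycarbonyl-1,4-dihydrocollidine, fed at 0.1% by weight (DDC7, DDC28), was set against a control diet (CTLD). The immunosuppressant cyclosporin A, gavaged at 15 mg/kg in olive oil (CsA7, CsA28), was set against the oil alone (VEHICLE). Each of the 9 groups held 4 libraries. No day was given for the controls, and no sex or age is recorded here for any group. The 4 control libraries of a model served both of its days, so the comparisons within a model share them. The labels number the libraries of a group without saying that each came from its own animal, so p-values measure the spread between these libraries.

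Fatty acid synthesis turns surplus carbohydrate into palmitate. Acetyl-CoA made from exported citrate is carboxylated to malonyl-CoA, fatty acid synthase condenses these units with NADPH, and elongases and desaturases then shape the chains that liver packs into triglyceride and phospholipid. In liver the pathway is known to be raised by feeding, with insulin acting through the sterol regulatory element-binding protein SREBP-1c, which is a product of Srebf1, and with glucose acting through ChREBP, a product of Mlxipl.

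Libraries held 2081093 to 3770267 reads. All values are normalized counts, which are reads divided by 1 factor per library. Differences are log2 fold changes with their standard errors from limma on log2(normalized count + 1), with 12596 genes tested and a call where the Benjamini-Hochberg adjusted p was below 0.05. The 4 ligation and DDC groups differed widely from their controls, and cell type markers moved with them. Of 11 tested hepatocyte markers, 8, 6, 10 and 10 were lower in BDL7, BDL28, DDC7 and DDC28, and 0 were higher. Their summed level was 55509 to 67393 in BDL7 and 61302 to 74210 in BDL28, against 81834 to 91363 in SHAM, and 59514 to 74752 in DDC7 and 59661 to 69363 in DDC28, against 94066 to 119500 in CTLD. Of 9 cholangiocyte markers, 9, 8, 6 and 8 were higher in the same groups, as were 9, 6, 7 and 7 of 10 macrophage markers and 6, 4, 5 and 6 of 8 fibroblast markers, while 1 macrophage marker and 1 fibroblast marker were lower in BDL28. Fewer hepatocytes and less RNA per hepatocyte cannot be told apart in such bulk tissue, and the part of these shifts in the results on the 10 genes was not tested. Adipocytes also make these enzymes. Of their listed markers, Adipoq had 7 reads, Plin1 1, Retn 2, Aqp7 23 and Cfd 72 over all 36 libraries. Fabp4 had 2925 and Car3 134505, and Lep and Slc7a10 were absent from the count table. Of 9 adipocyte markers 2 were tested: Fabp4 was higher in the 4 groups, and Car3, which mouse hepatocytes also make, was lower and averaged 24.1 ± 15.9 in BDL28, against 6427 ± 465 in SHAM. The list summed to 227 to 411 in BDL7, 80.4 to 174 in BDL28, 498 to 930.1 in DDC7 and 165 to 216 in DDC28, against 5876 to 7021 in SHAM and 8681 to 10028 in CTLD. The SHAM sums were largely Car3, and the part of adipocytes in the results was not tested. With scaling by total count, the median gene was higher by 0.33, 0.29, 0.38, 0.39 and 0.13 on the log2 scale in BDL7, BDL28, DDC7, DDC28 and CsA7, against 0.01, 0.03, 0.04, 0.04 and 0.00 with the authors' scaling. The share of called genes that were higher was then 84.2%, 74.3%, 82.2%, 78.5% and 83.3%, against 52.3%, 51.5%, 52.8%, 53.0% and 46.7% with the authors' scaling.

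**Figure D1:**
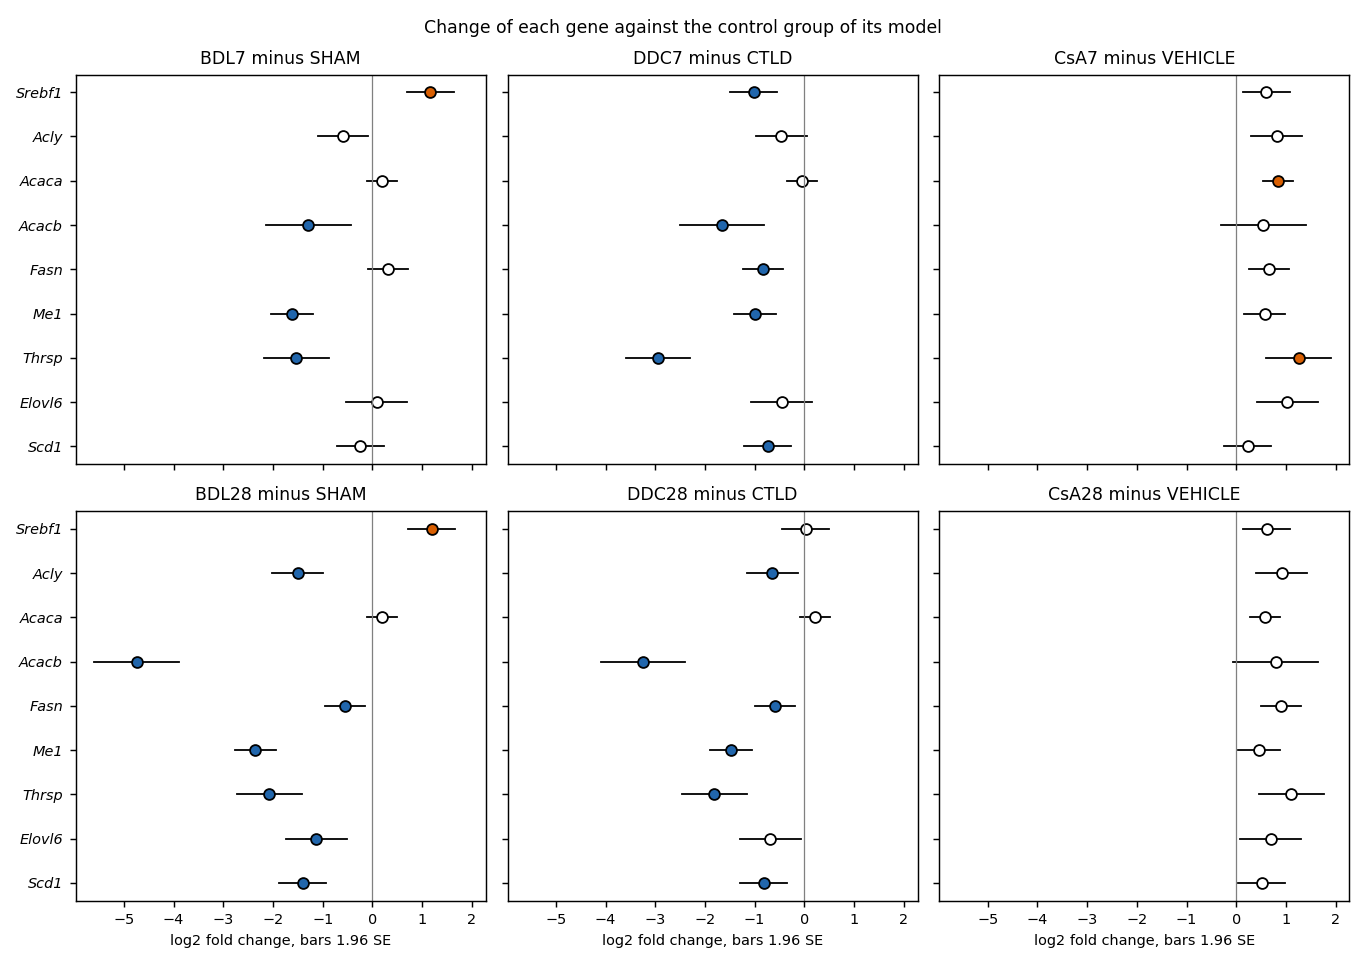
Log2 fold change of 9 fatty acid synthesis genes in each treated group against the control of its model, on 1 shared axis, with bars of about 2 standard errors and n = 4 libraries a group. Orange points were called higher, blue points lower and open points were not called; Srebf1 stands apart in the ligation panels at 1.16 and 1.19, while Acacb reached -4.75 in BDL28. Scd1, blue in DDC7 and DDC28, reversed in sign with quantile normalization.

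Against SHAM, 1 of the 9 tested genes was higher in BDL7 and 3 were lower, where 20.2% of all tested genes were higher and 18.5% lower. In BDL28, 1 was higher and 7 were lower, where 24.1% of all genes were higher and 22.7% lower. The gene that was higher in each was Srebf1, and the gene that was not called in BDL28 was Acaca. Against CTLD, 0 were higher and 6 lower in DDC7, where 24.7% of all genes were higher and 22.1% lower. In DDC28 the counts were also 0 and 6, where 27.9% of all genes were higher and 24.7% lower. The median of the 9 log2 fold changes was -0.24 in BDL7, -1.40 in BDL28, -0.84 in DDC7 and -0.69 in DDC28, and that of all tested genes was 0.01, 0.03, 0.04 and 0.04. In CsA7 the members lay on the other side of 0. Against VEHICLE, 2 were higher and 0 lower, where 1.88% of all genes were higher and 2.14% lower, and the members' median was 0.67. In CsA28, with 0 members called, 0.0238% of all genes were called, which was 3 genes by limma, 2 by edgeR and 71 by DESeq2, while 1174 had an unadjusted limma p under 0.05. The members' median there was 0.69. Without overlap between the libraries of treatment and control, 1 member was higher and 3 lower in BDL7 (all genes, 19.8% and 19.2%), and 1 higher and 6 lower in BDL28 (18.7% and 18.6%). In DDC7 0 were higher and 7 lower (23.2% and 20.8%), and in DDC28 0 higher and 7 lower (25% and 22%). In CsA28 1 was higher and 0 lower (1.85% and 2.64%). The 10 genes together took 0.458% to 0.532% of all reads in BDL7 and 0.157% to 0.334% in BDL28, against 0.403% to 0.592% in SHAM. They took 0.194% to 0.357% in DDC7 and 0.236% to 0.331% in DDC28, against 0.340% to 0.520% in CTLD, and 0.503% to 0.660% in CsA7 and 0.454% to 0.932% in CsA28, against 0.354% to 0.437% in VEHICLE. Most of these reads were of Scd1, with 290383 over all libraries, against 33735 for Fasn, the next highest member. The summed shares therefore largely follow Scd1.

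Srebf1 (ENSMUSG00000020538) encodes the SREBP-1 transcription factors that switch on the enzymes of this pathway. It was singled out with its difference between ligation and the DDC diet in these data already known. It was the member whose change at day 7 differed most between these models. It had 291, 352, 359.9 and 329.7 normalized counts in the 4 BDL7 libraries and 237, 357, 391 and 395 in the BDL28 libraries, against 138, 160.1, 141 and 154 in the SHAM libraries. Every ligation library lay above every SHAM library. The means were 333 ± 31.0 in BDL7 and 345 ± 74.1 in BDL28, against 148 ± 10.7 in SHAM (SD, n = 4 each), and the fitted values were 2.24-fold and 2.28-fold higher. The log2 fold changes were 1.16 ± 0.24, limma adjusted p = 0.000298, and 1.19 ± 0.24, limma adjusted p = 0.000172. In the diet model Srebf1 had 136, 139.8, 142 and 105 in DDC7 and 282, 249, 295 and 255 in DDC28, against 229, 241, 331 and 265 in CTLD. The DDC7 libraries all lay below the CTLD libraries, and the DDC28 libraries fell within their range. Srebf1 was 2.03-fold lower in DDC7 (log2 -1.02 ± 0.24, limma adjusted p = 0.00093) and was not called in DDC28 (log2 0.03 ± 0.24, limma adjusted p = 0.929).

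The difference between the ligation effect and the DDC effect on Srebf1 was 2.18 ± 0.34, limma adjusted p = 0.000237, at day 7 and 1.16 ± 0.34, limma adjusted p = 0.0289, at day 28. As the gene was singled out for this difference in the same data, these p-values are no separate support for it. The control groups enter this difference, and they were not alike. Srebf1 averaged 148 ± 10.7 in SHAM and 267 ± 45.7 in CTLD, with no overlap, a log2 difference of -0.83 ± 0.24, limma adjusted p = 0.0177; the call was lost without CTLD replicate 3 (-0.72, adjusted p = 0.0672). Set directly against each other, BDL7 and DDC7 differed by 1.35 (limma adjusted p = 0.00145), whereas BDL28 and DDC28 differed by 0.33 (adjusted p = 0.489). The day 28 difference thus turned on the 2 control groups. It also lost its call when all genes with any count were tested (adjusted p = 0.0722) and on leaving out BDL28 replicate 2, 3 or 4, CTLD replicate 3, DDC28 replicate 2 or SHAM replicate 3 (adjusted p of up to 0.0621). Against the mean of all 3 control groups, Srebf1 was 0.71 and 0.74 higher in BDL7 and BDL28 (limma adjusted p = 0.00314 and 0.00201), and its log2 fold change was -0.64 in DDC7 (adjusted p = 0.00835) and 0.41 in DDC28 (adjusted p = 0.074). Against the same mean it was 0.67 higher in CsA7 (adjusted p = 0.0238) and 0.68 in CsA28, which was not called (adjusted p = 0.0903).

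In the cyclosporin model Srebf1 had 353, 252, 307 and 396 normalized counts in CsA7 and 305, 318, 301 and 380.5 in CsA28, against 88.5, 278, 359 and 225 in VEHICLE. The VEHICLE libraries were the most variable set for this gene, with a coefficient of variation of 47.8%, and overlapped both treated groups. Neither effect was called (log2 0.61 ± 0.24 and 0.62 ± 0.24, limma adjusted p = 0.166 and 0.388). The CsA7 effect was called without VEHICLE replicate 3 (0.86, adjusted p = 0.0345), and was 0.19 without VEHICLE replicate 1 (adjusted p = 0.599). By group mean the order from lowest to highest was DDC7, SHAM, VEHICLE, CTLD, DDC28, CsA28, CsA7, BDL7 and BDL28. Neighbours in this order overlapped in their libraries, except DDC28 and CsA28.

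The 3' end counted here is shared by the transcripts that start at different Srebf1 promoters, so the SREBP-1a and SREBP-1c messages cannot be told apart. In GENCODE M21 the last 3000 bases of Srebf1 on chromosome 11 also overlap Rai1 on the opposite strand and Mir6921, and whether reads were counted by strand is not given in the sources used here. Rai1 averaged 77.0 ± 7.49 in BDL7, 71.7 ± 13.1 in BDL28 and 56.2 ± 10.1 in SHAM. Its log2 fold change was 0.46 in BDL7 (limma adjusted p = 0.037), 0.35 in BDL28, 0.41 in DDC7 and 0.26 in DDC28, and the last 3 were not called. The difference between the models was 0.05 at day 7 and 0.08 at day 28 for Rai1, against 2.18 and 1.16 for Srebf1. Whether reads of Rai1 entered the Srebf1 counts was not tested.

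The promoter windows of Srebf1, Fasn and Thrsp are shown because Srebf1 and Fasn differed between the models and Thrsp fell in every ligation and DDC group. Each window covers the bases just before and after a start in RefSeq, is written 5' to 3' on the gene's strand and has build GRCm38.p6. Capitals mark matches, on either strand, to CCAAT (the box bound by NF-Y, a factor known to act beside SREBP) and to GGGCGG (the GC box bound by Sp1). Of the CCAAT matches in Fasn, 2 overlap by 2 bases.
Srebf1, the most downstream of 3 windows, chr11:60210422-60210721, minus strand: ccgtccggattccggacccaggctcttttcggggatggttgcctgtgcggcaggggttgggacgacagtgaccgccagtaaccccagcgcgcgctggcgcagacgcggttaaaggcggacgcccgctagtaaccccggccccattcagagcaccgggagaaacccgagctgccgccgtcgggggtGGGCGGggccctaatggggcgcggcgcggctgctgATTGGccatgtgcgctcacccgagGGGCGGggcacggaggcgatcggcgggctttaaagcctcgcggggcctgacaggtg
Fasn, chr11:120824498-120824797, minus strand: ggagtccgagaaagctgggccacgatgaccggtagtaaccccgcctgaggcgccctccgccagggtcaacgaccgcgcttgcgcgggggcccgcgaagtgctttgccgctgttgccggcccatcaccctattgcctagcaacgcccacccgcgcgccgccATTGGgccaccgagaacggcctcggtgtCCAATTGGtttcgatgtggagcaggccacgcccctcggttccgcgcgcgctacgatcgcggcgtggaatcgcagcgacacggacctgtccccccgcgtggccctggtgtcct
Thrsp, chr7:97417501-97417800, minus strand: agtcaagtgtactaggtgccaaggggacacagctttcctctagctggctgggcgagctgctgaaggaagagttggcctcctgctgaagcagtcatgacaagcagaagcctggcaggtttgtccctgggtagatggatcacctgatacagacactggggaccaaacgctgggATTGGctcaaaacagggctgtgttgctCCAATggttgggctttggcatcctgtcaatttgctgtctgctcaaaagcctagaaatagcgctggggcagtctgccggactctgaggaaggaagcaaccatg
The Srebf1 window shown held 1 CCAAT and 2 GGGCGG matches, Fasn 3 CCAAT matches and Thrsp 2 CCAAT matches. Of the Srebf1 windows not shown, chr11:60220578-60220877 held 0 CCAAT and 3 GGGCGG matches, and chr11:60222532-60222831 held 1 and 0. Of 32851 RefSeq promoter windows of this length, 37.4% held CCAAT and 35.7% held GGGCGG. RefSeq windows were found for 9 of the 10 genes, the exception being Scd1. TCACNCCAC, a form of the sterol regulatory element, was held by 1.24% of all windows and by 0 of the 12 windows of the members, and the E-box CACGTG by 7.15% and 0. Only these spellings were searched, so other forms of the elements would have been missed. The counts are matches of letters and not measured binding.

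**Figure D2:**
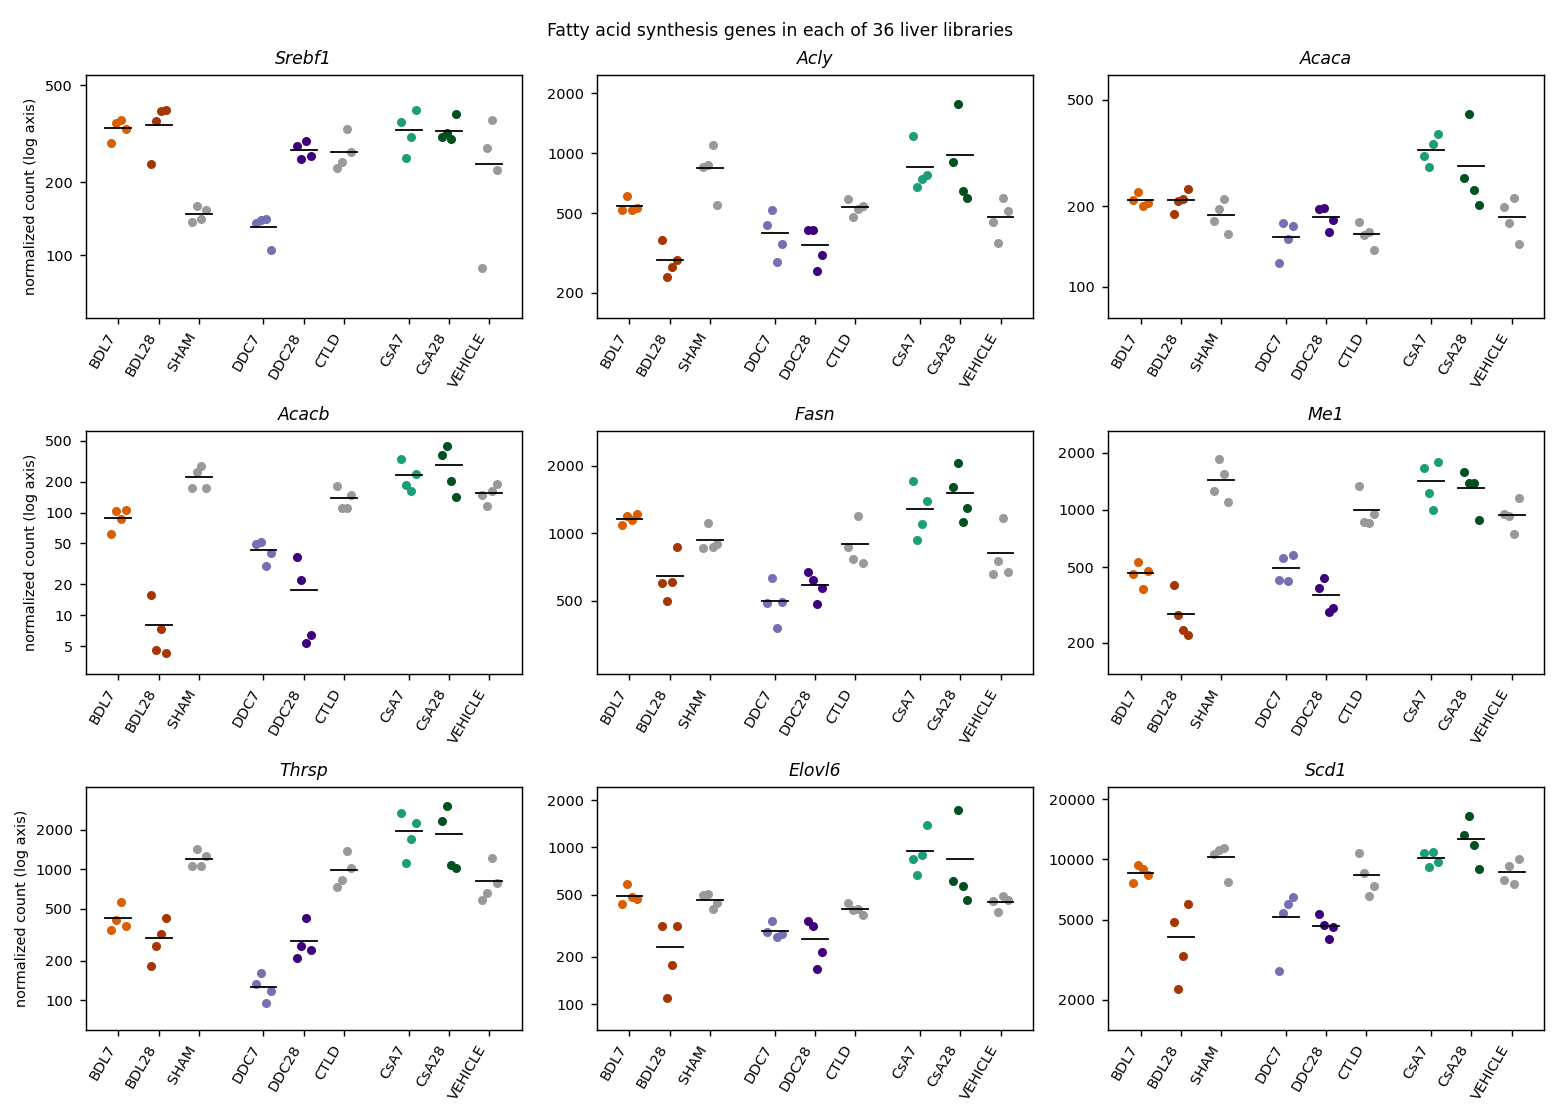
Normalized count of 9 fatty acid synthesis genes in each of the 36 libraries, on log axes, with a line at the mean of each group of 4. Srebf1 in SHAM (138 to 160.1) and DDC7 (105 to 142) lay below the other groups apart from 1 VEHICLE library at 88.5, and Acacb fell to 4.29 to 15.7 in BDL28.

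Thrsp (ENSMUSG00000035686) encodes the thyroid hormone-responsive Spot 14 protein, a nuclear and cytosolic promoter of lipogenesis. It was lower in all 4 ligation and DDC groups. Thrsp had 343, 409.9, 565 and 369 normalized counts in BDL7 and 182, 258, 320.4 and 427 in BDL28, against 1062, 1442, 1052 and 1268 in SHAM. It had 132, 162, 94.7 and 118 in DDC7 and 212, 259.9, 424 and 242 in DDC28, against 737, 834, 1373 and 1027 in CTLD. No treated library reached the lowest of its controls. The log2 fold changes were -1.53 ± 0.33 in BDL7 and -2.07 ± 0.33 in BDL28 (limma adjusted p = 0.000496 and 8.14e-06). They were -2.95 ± 0.33 in DDC7, which is 7.71-fold lower, and -1.81 ± 0.33 in DDC28 (limma adjusted p = 3.58e-08 and 4.11e-05). In the diet model Thrsp was thus higher at day 28 than at day 7, with no overlap (log2 1.14 ± 0.33, limma adjusted p = 0.0382), a call that was lost on leaving out any of 6 libraries, with adjusted p of 0.0548 to 0.177, or with no filter (adjusted p = 0.0731). In the cyclosporin model Thrsp had 2701, 1125, 1711 and 2269 in CsA7 and 2336, 3039.6, 1087 and 1025 in CsA28, against 580.2, 654, 1223 and 782 in VEHICLE. It rose 2.39-fold in CsA7 (log2 1.25 ± 0.33, limma adjusted p = 0.0268), although the lowest CsA7 library overlapped the highest VEHICLE library. That call was lost with no filter (adjusted p = 0.0589), in a fit of the 2 groups alone (0.13) and on leaving out any of 5 libraries (0.0539 to 0.0985).

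Acly (ENSMUSG00000020917), ATP citrate lyase, splits exported citrate to supply cytosolic acetyl-CoA. It had 366, 239.8, 270.2 and 292 normalized counts in BDL28, against 859, 870.0, 1096 and 553 in SHAM, with no overlap, and was 2.84-fold lower (log2 -1.50 ± 0.26, limma adjusted p = 2.31e-05). In BDL7 its libraries held 521, 611, 517 and 533, of which 3 lay below every SHAM library and 1 above the lowest of them, and it was not called (log2 -0.59 ± 0.26, limma adjusted p = 0.0726). Without that SHAM library, replicate 4, it was called (-0.78, adjusted p = 0.024). It was also called with DESeq2 (-0.63, adjusted p = 0.0373) and in a fit of these groups alone (-0.59, adjusted p = 0.0405). In the diet model Acly averaged 398 ± 102 in DDC7 and 349 ± 78.4 in DDC28, against 536 ± 46.8 in CTLD. It was not called in DDC7 (log2 -0.46 ± 0.26) and was called lower in DDC28 (log2 -0.64 ± 0.26, limma adjusted p = 0.0386). The DDC7 effect was called in a fit of these groups alone (-0.46, adjusted p = 0.035) and against the mean of all 3 control groups (-0.61, adjusted p = 0.0185). The DDC28 call was lost with total-count scaling (-0.28, adjusted p = 0.386), with quantile normalization (-0.50, adjusted p = 0.104) and on leaving out any of 5 libraries (adjusted p of 0.0607 to 0.133), and with no filter (0.0838). SHAM livers were themselves higher in Acly than VEHICLE livers, at 844 ± 223 and 479.9 ± 101 (log2 0.80 ± 0.26, limma adjusted p = 0.0296), a call that was lost in a fit of these groups alone (0.0586), with no filter (0.0731) and on leaving out SHAM replicate 1, 2 or 3 or VEHICLE replicate 1 or 2 (0.0607 to 0.107).

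Of the 2 acetyl-CoA carboxylases, Acacb was lower in all 4 ligation and DDC groups and Acaca was called in none of them. Acaca (ENSMUSG00000020532) encodes the cytosolic enzyme ACC1, whose malonyl-CoA feeds fatty acid synthase. Acacb (ENSMUSG00000042010) encodes ACC2 of the outer mitochondrial membrane, whose malonyl-CoA restrains the entry of fatty acids into mitochondria for oxidation. Acacb had 61.8, 103, 85.7 and 106 normalized counts in BDL7 and 15.7, 4.59, 7.43 and 4.29 in BDL28, against 173, 247, 285 and 174 in SHAM. It was 2.45-fold lower in BDL7 (log2 -1.29 ± 0.43, limma adjusted p = 0.0188) and 26.9-fold lower in BDL28 (log2 -4.75 ± 0.43, limma adjusted p = 5.14e-10). The BDL28 libraries held 33 Acacb reads in all, against 743 in SHAM. Acacb had 49.4, 51.9, 29.9 and 40.4 in DDC7 and 36.6, 22.1, 5.43 and 6.43 in DDC28, against 180.4, 112, 109.6 and 147 in CTLD. It was 3.15-fold lower in DDC7 (log2 -1.66 ± 0.43, limma adjusted p = 0.00252) and 9.49-fold lower in DDC28 (log2 -3.25 ± 0.43, limma adjusted p = 3.98e-07). DDC28 replicates 1 and 2 stood above replicates 3 and 4, and all were below the controls. The BDL7 call was lost with total-count scaling (-0.97, adjusted p = 0.0824) and without BDL7 replicate 1 (adjusted p = 0.0644) or SHAM replicate 3 (adjusted p = 0.0576).

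Acaca, by contrast, had 212, 226, 200.4 and 206 in BDL7 and 188, 210.4, 213 and 232 in BDL28, against 176, 195, 214 and 158 in SHAM, and 123, 173, 150.5 and 169 in DDC7 and 196, 197, 160.1 and 177 in DDC28, against 175, 157, 160.5 and 137 in CTLD. These libraries overlapped in every comparison. Its log2 fold changes were 0.19 ± 0.16, 0.19 ± 0.16, -0.04 ± 0.16 and 0.21 ± 0.16, none of them called (limma adjusted p of 0.258 to 0.847). With total-count scaling, Acaca was called higher in BDL7 (0.52, adjusted p = 0.0112), BDL28 (0.45, adjusted p = 0.0239) and DDC28 (0.57, adjusted p = 0.00381), where the median of all genes was also raised. The ratio of Acaca reads to Acacb reads within a library depends on how well each 3' end is read, so only its change between groups is meaningful. It ran from 1.94 to 3.43 in BDL7 and from 11.9 to 54 in BDL28, against 0.749 to 1.02 in SHAM. It ran from 2.49 to 5.03 in DDC7 and from 5.35 to 29.5 in DDC28, against 0.933 to 1.46 in CTLD. No treated library of these models overlapped its controls in this ratio.

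Fasn (ENSMUSG00000025153), fatty acid synthase, carries out the condensation cycles that end in palmitate. It had 1093, 1190.1, 1143 and 1221 normalized counts in BDL7 and 602, 498, 607 and 867 in BDL28, against 861, 1113, 868 and 897 in SHAM. Of the BDL7 libraries 3 lay above every SHAM library, and of the BDL28 libraries 3 lay below every one. Fasn was not called in BDL7 (log2 0.32 ± 0.20, limma adjusted p = 0.229) and was 1.47-fold lower in BDL28 (log2 -0.56 ± 0.20, limma adjusted p = 0.0254). In the diet model it had 488, 634, 377 and 495 in DDC7 and 672, 616, 486 and 570.4 in DDC28, against 868, 771, 1190.0 and 739 in CTLD, with no overlap at either day. It was 1.79-fold lower in DDC7 (log2 -0.84 ± 0.20, limma adjusted p = 0.00125) and 1.50-fold lower in DDC28 (log2 -0.59 ± 0.20, limma adjusted p = 0.0165). The ligation effect at day 7 thus exceeded the DDC effect by 1.16 ± 0.29, limma adjusted p = 0.0121. At day 28 the difference was 0.03 ± 0.29. Fasn was 1.84-fold lower in BDL28 than in BDL7 (log2 -0.88 ± 0.20, limma adjusted p = 0.00158), and DDC28 differed from DDC7 by 0.25 ± 0.20, so that the day changes differed by -1.13 ± 0.29, limma adjusted p = 0.0454. The Fasn calls varied with the processing. As scaled by the authors, Fasn was called higher in BDL7 in a fit of these groups alone (0.32, adjusted p = 0.00511) and against the mean of all 3 control groups (0.43, adjusted p = 0.0324). With total-count scaling it was called higher in BDL7 (0.64, adjusted p = 0.0144) and no longer called in BDL28 (-0.30, adjusted p = 0.252), DDC7 (-0.49, adjusted p = 0.0548) or DDC28 (-0.23, adjusted p = 0.37). With quantile normalization it was called higher in BDL7 (0.67, adjusted p = 0.00962) and not called in BDL28 or DDC28. The BDL28 call also failed without SHAM replicate 2 or BDL28 replicate 1, 2 or 3 (adjusted p of 0.0519 to 0.102) and with no filter (0.0601), and the DDC28 call without CTLD replicate 3 (0.0842) or DDC28 replicate 3 (0.0604). The difference in day change failed without any of 11 libraries (adjusted p of 0.0569 to 0.125) and with no filter (0.0931).

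Me1 (ENSMUSG00000032418), cytosolic malic enzyme, yields NADPH for the synthase while returning oxaloacetate carbon to pyruvate. It had 459, 530.0, 386 and 479 normalized counts in BDL7 and 404, 280.2, 233 and 219.7 in BDL28, against 1262, 1860.4, 1549.7 and 1103 in SHAM. It had 428, 561, 422 and 579 in DDC7 and 391, 441, 290.3 and 305 in DDC28, against 1328, 861, 849 and 948 in CTLD. The libraries of treatment and control did not overlap in any of the 4 comparisons, and the highest treated library stood well under the lowest control. Me1 was 3.07-fold lower in BDL7 (log2 -1.62 ± 0.21, limma adjusted p = 5.08e-07) and 5.11-fold lower in BDL28 (log2 -2.35 ± 0.21, limma adjusted p = 2.36e-10). It was 1.99-fold lower in DDC7 (log2 -0.99 ± 0.21, limma adjusted p = 0.000333) and 2.78-fold lower in DDC28 (log2 -1.48 ± 0.21, limma adjusted p = 1.07e-06). All 4 calls held under every scaling, test and omission tried. At day 28 the ligation effect was lower than the DDC effect by an amount that was not called (-0.88 ± 0.30, limma adjusted p = 0.0592) and that passed the threshold with DESeq2 (adjusted p = 0.0393) and without BDL28 replicate 1, CTLD replicate 1, DDC28 replicate 3 or SHAM replicate 4 (0.0137 to 0.0479).

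Elovl6 (ENSMUSG00000041220) lengthens palmitate to stearate. It had 434, 586, 479.6 and 470.1 normalized counts in BDL7 and 316, 109, 177 and 317 in BDL28, against 499.5, 506, 403 and 445 in SHAM. The BDL7 libraries interleaved with the SHAM libraries (log2 0.08 ± 0.31, limma adjusted p = 0.864), and the BDL28 libraries all lay below them (log2 -1.13 ± 0.31, limma adjusted p = 0.0039). In the diet model Elovl6 averaged 295 ± 31.8 in DDC7 and 259.8 ± 81.1 in DDC28, against 404 ± 30.4 in CTLD. The libraries did not overlap, yet neither difference was called (log2 -0.46 ± 0.31 and -0.69 ± 0.31, limma adjusted p = 0.239 and 0.066). In fits of the groups concerned alone they were called (-0.46, adjusted p = 0.00115, and -0.69, adjusted p = 0.0143). The DDC28 effect was also called against the mean of all 3 control groups (-0.80, adjusted p = 0.00873) and without DDC28 replicate 1 (-0.83, adjusted p = 0.0411). The coefficient of variation of Elovl6 was 70.7% in CsA28, 45.1% in BDL28, 32.9% in CsA7 and 31.2% in DDC28, and 7.54% to 13.3% in the other groups.

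Scd1 (ENSMUSG00000037071), stearoyl-CoA desaturase, makes oleate from stearate. It had 4852, 2250.1, 3307 and 5962 normalized counts in BDL28, against 10669, 11198, 11452 and 7681 in SHAM, with no overlap, and was 2.64-fold lower (log2 -1.40 ± 0.24, limma adjusted p = 2.18e-05). In BDL7 it had 7629.6, 9397, 8941 and 8350.4 and was not called (log2 -0.24 ± 0.24, limma adjusted p = 0.46). In the diet model Scd1 had 2768, 5384, 6016 and 6528 in DDC7 and 5360.1, 4716, 4026 and 4595 in DDC28, against 10815, 8563, 6574 and 7386 in CTLD. The DDC libraries lay below the CTLD libraries, and Scd1 was called lower in DDC7 (log2 -0.74 ± 0.24, limma adjusted p = 0.0135) and DDC28 (log2 -0.82 ± 0.24, limma adjusted p = 0.00552), calls that reversed in sign with quantile normalization (0.13 and 0.12, not called) and were not called with total-count scaling (-0.39 and -0.46). The DDC7 call was also lost without DDC7 replicate 1 (-0.46, adjusted p = 0.0945) or CTLD replicate 1 (-0.60, adjusted p = 0.0571), and in a fit of these groups alone (adjusted p = 0.0909). Scd1 belongs to a family of near relatives, and reads shared with Scd2 or Scd3 could have been divided among them in counting.

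Pnpla3 (ENSMUSG00000041653) encodes a lipid droplet lipase that is known as a target of SREBP-1c. It was barely detected, with 22 reads over 15 of the 36 libraries, and was not tested. CsA7 held 10 of these reads, in all 4 libraries, at 4.05, 1.88, 1.53 and 1.52 normalized counts. Each other group held 0 to 3 reads, and BDL28 held 0, which allows at most 3 counts over the group. VEHICLE held 1 read, which is below that floor, so no fold is given. This limit covers counting error only. In GENCODE M21 the 3' end of Pnpla3 overlaps Gm49513, and that of Acly overlaps Mir7116.

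Between day 7 and day 28 after ligation, 0 members rose and 6 fell, where 14% of all tested genes were higher and 16.7% lower in BDL28 than in BDL7. Acacb fell furthest (log2 -3.46 ± 0.43, limma adjusted p = 1.34e-06). Elovl6 (-1.22 ± 0.31), Scd1 (-1.16 ± 0.24), Acly (-0.91 ± 0.26), Fasn (-0.88 ± 0.20) and Me1 (-0.74 ± 0.21) were also lower. Thrsp (-0.55 ± 0.33), Srebf1 (0.03 ± 0.24) and Acaca (-0.01 ± 0.16) were not called. Of 11 hepatocyte markers, 5 were higher and 0 lower in BDL28 than in BDL7. In DDC livers 2 members were higher and 1 lower at day 28, where 2.07% of all genes were higher and 3.63% lower. Srebf1 was 2.07-fold higher in DDC28 than in DDC7 with no overlap (log2 1.05 ± 0.24, limma adjusted p = 0.00725), as was Thrsp, and Acacb was lower (log2 -1.59 ± 0.43, limma adjusted p = 0.0255). The Acacb call was lost with edgeR (adjusted p = 0.0948), with no filter (0.0537), in a fit of the 2 groups alone (0.134) and without DDC7 replicate 1 or 2 or DDC28 replicate 3 or 4 (0.0726 to 0.151).

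The effects of the models were compared directly for all 9 genes. At day 7, 2 were higher under ligation than under the diet, Srebf1 and Fasn, where 3.78% of all genes were higher and 4.68% lower. Thrsp leaned the same way without being called (1.42 ± 0.47, limma adjusted p = 0.0573), and it was called with DESeq2, with quantile normalization, in a fit of the 4 groups alone, against 1 shared reference and without CTLD replicate 1 (adjusted p of 0.00305 to 0.0483). At day 28, 1 was higher, Srebf1, where 4.69% of all genes were higher and 5.59% lower. In the change between days, 1 was lower in the ligation model, Fasn, where 0.603% of all genes were higher and 0.873% lower. The day 28 difference for Acacb was -1.50 ± 0.61, limma adjusted p = 0.114, and the call was gained with DESeq2 (-1.84, adjusted p = 0.0176). All 9 estimates of the difference in day change were below 0, from -1.87 for Acacb to -0.25 for Me1, and 8 of them were not called. Among those 8 were Srebf1 (-1.02 ± 0.34, limma adjusted p = 0.106) and Thrsp (-1.68 ± 0.47, limma adjusted p = 0.058). Srebf1, Thrsp and Acacb were called with DESeq2 (adjusted p of 0.0109 to 0.0369). Srebf1 was also called in a fit of the groups alone (0.0397), and Thrsp with quantile normalization (0.0267) and total-count scaling (0.0426).

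**Figure D3:**
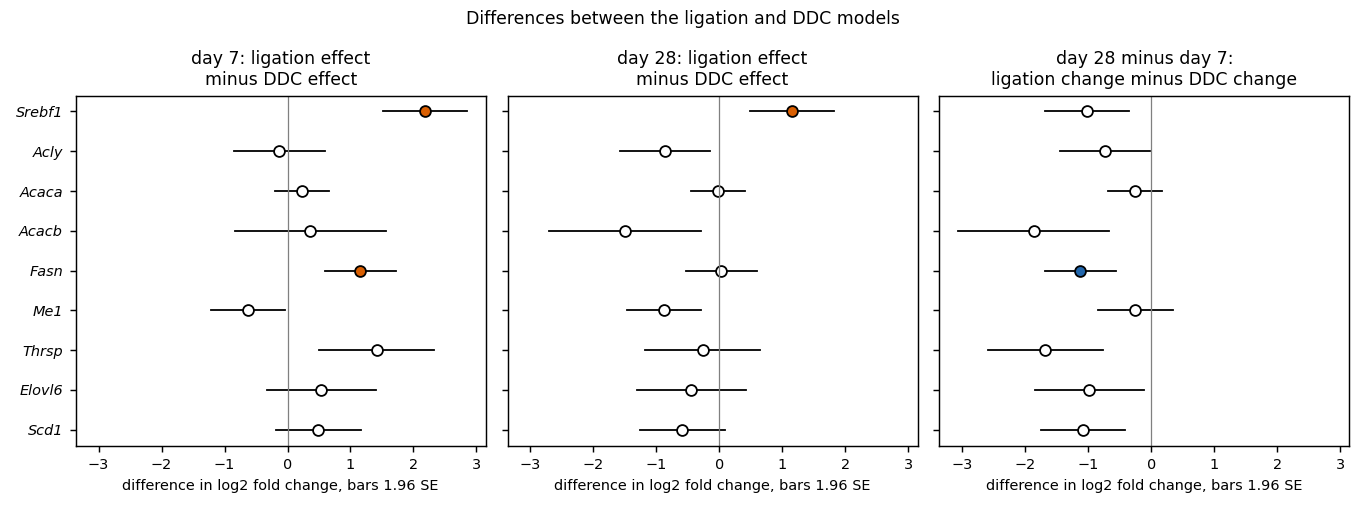
Difference in log2 fold change between the ligation and DDC models for 9 genes, at day 7, at day 28 and for the change between the days, with bars of about 2 standard errors. Filled points were called (orange above 0, blue below); Srebf1 stands at 2.18 on day 7 and 1.16 on day 28, and Fasn at 1.16 on day 7 and -1.13 in the change between days.

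In cyclosporin A livers all 9 log2 fold changes were above 0 at both days, and 2 passed the test at day 7. The median of all tested genes was 0.0016 in CsA7 and -0.0011 in CsA28. Every one of these values rests on the same VEHICLE libraries, so neither the 9 signs nor the days are separate observations. In CsA7 Acaca had 308, 280.2, 342 and 373 normalized counts, against 199.8, 174, 215 and 145 in VEHICLE, with no overlap, and was 1.78-fold higher (log2 0.83 ± 0.16, limma adjusted p = 0.00105). Acaca and Thrsp were the 2 called members. Fasn (0.67 ± 0.20), Acly (0.81 ± 0.26) and Elovl6 (1.03 ± 0.31) had limma adjusted p = 0.0617, 0.0755 and 0.0608. Elovl6 had 845, 664, 892 and 1393 in CsA7, against 456, 389, 491 and 461 in VEHICLE, and Acly 1221, 677, 740.4 and 776 in CsA7, against 451, 357, 596 and 515 in VEHICLE, neither of which overlapped. All 3 were called with DESeq2 (adjusted p of 0.00893 to 0.0256) and with total-count scaling (0.021 to 0.0326). Without overlap 3 members were higher and 0 lower in CsA7, where 5.01% of all genes were higher and 5.26% lower. Of the other members, Me1 (0.57 ± 0.21), Acacb (0.55 ± 0.43) and Scd1 (0.23 ± 0.24) were not called.

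In CsA28 the 9 log2 fold changes ran from 0.46 for Me1 to 1.11 for Thrsp, none of them called (limma adjusted p of 0.132 to 0.58). With DESeq2, 4 members were called there: Fasn (0.90, adjusted p = 0.00964), Acly (1.03, adjusted p = 0.0178), Acaca (0.63, adjusted p = 0.0416) and Thrsp (1.21, adjusted p = 0.0432). The CsA28 livers varied among themselves. Replicate 2 was the highest in Acly, Acaca, Elovl6, Fasn, Thrsp, Acacb and Scd1, with Acly at 899.6, 1773, 648 and 600.3 in the 4 libraries. Between CsA28 and CsA7, 0 members were called by limma, edgeR or DESeq2, where 2.45% of all genes were called, and 1 (Acaca, -0.50, adjusted p = 0.0288) was called without CsA28 replicate 2. Hepatocyte markers were called neither way in CsA7 or CsA28 (0 of 11). Few genes of any kind were called there, 1.88% higher and 2.14% lower in CsA7 and 3 genes in CsA28. The markers' median log2 fold change was -0.24 in CsA7 and -0.12 in CsA28. In CsA7, 1 of 9 cholangiocyte markers was lower and 1 of 10 macrophage markers was higher.

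Among the controls, SHAM differed from CTLD in 0 members upward and 1 downward, Srebf1, where 8.09% of all genes were higher and 7.84% lower. SHAM was above VEHICLE in 2 members, Acly and Me1 (0.60 ± 0.21, limma adjusted p = 0.0442, lost without SHAM replicate 2 or 3 or VEHICLE replicate 1, 2 or 3, with adjusted p of 0.0768 to 0.159), and below it in 0, where 10.3% of all genes were higher and 9.65% lower. Srebf1 was below VEHICLE in SHAM without being called (-0.51 ± 0.24, limma adjusted p = 0.14), and was called without VEHICLE replicate 1, its lowest library at 88.5 (-0.93, adjusted p = 0.000164). With all libraries kept, it was called with DESeq2 (-0.69, adjusted p = 0.018) and with edgeR (-0.69, adjusted p = 0.0354). CTLD and VEHICLE differed in 0 members, where 0.0635% of all genes were called. Of 11 tested hepatocyte markers, 7 were lower in SHAM than in CTLD, and 7 were lower in SHAM than in VEHICLE. In each case 0 were higher, and the median log2 differences were -0.35 and -0.26. The part of this shift in the results on the members was not tested. The labels name no date or batch, so a batch that follows the models cannot be told apart from these differences.

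The members varied over the groups by unequal amounts. On the log2 scale of group means, the distance from the lowest to the highest group was 1.08 for Acaca, 1.38 for Srebf1, 1.59 for Fasn, 1.62 for Acly, 1.69 for Scd1, 2.12 for Elovl6, 2.35 for Me1, 3.89 for Thrsp and 5.04 for Acacb. Profiles over the 9 group means, each centred on its own mean, were compared by their root mean square difference. The closest pair was Acly and Scd1 at 0.18, followed by Acly and Elovl6 at 0.26. The farthest pair was Acacb and Srebf1 at 1.84. Srebf1 was closest to Acaca, at 0.38, and stood 0.49 from Fasn and 0.71 from Scd1. The profiles were not brought to a common span, so the distances also follow the spans, smallest for Acaca and Srebf1 and widest for Acacb. A short distance therefore need not mean a shared pattern. The centred values of Acaca were -0.41 in DDC7 and -0.36 in CTLD, against -0.92 and 0.10 for Srebf1. The 9 means share controls and scaling, so these distances are descriptions.

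Among 4930 tested genes whose group means spanned at least 1 on the log2 scale, the profiles nearest to that of Srebf1 were Per2 at a distance of 0.28, Zswim9 at 0.29, Fkbp14 at 0.29, Lss at 0.31 and Dclre1a at 0.32. Per2, a repressor of the circadian clock, had a log2 fold change of 0.62 in BDL7 (limma adjusted p = 0.183) and 1.16 in BDL28 (adjusted p = 0.00982), -1.49 in DDC7 (adjusted p = 0.00121) and -0.35 in DDC28 (adjusted p = 0.432). The BDL28 call was lost against the mean of all 3 control groups (0.54, adjusted p = 0.125). Per2 was lower in SHAM than in CTLD, at 28.0 ± 8.54 and 69.2 ± 32.8 (log2 -1.21 ± 0.36, adjusted p = 0.0213). Its difference between the models was 2.12 at day 7 (adjusted p = 0.00981), and with the treated groups set directly against each other it was 0.90 (adjusted p = 0.167). The profiles nearest to that of Fasn were Mid1ip1 at 0.13, Gpam at 0.17, Anks4b at 0.24, Zfp866 at 0.25 and Cldn5 at 0.25. Gpam encodes the mitochondrial acyltransferase that opens glycerolipid synthesis. Gpam differed between the models at day 7 (1.04 ± 0.32, limma adjusted p = 0.038) and in the change between days (-1.33 ± 0.32, adjusted p = 0.0318), calls that were lost when all genes with any count were tested (adjusted p = 0.0992 and 0.0704). Per2 and Gpam were picked because their group means resembled those of Srebf1 and Fasn. Contrasts of those same means are alike by that choice and are no separate support.

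**Figure D4:**
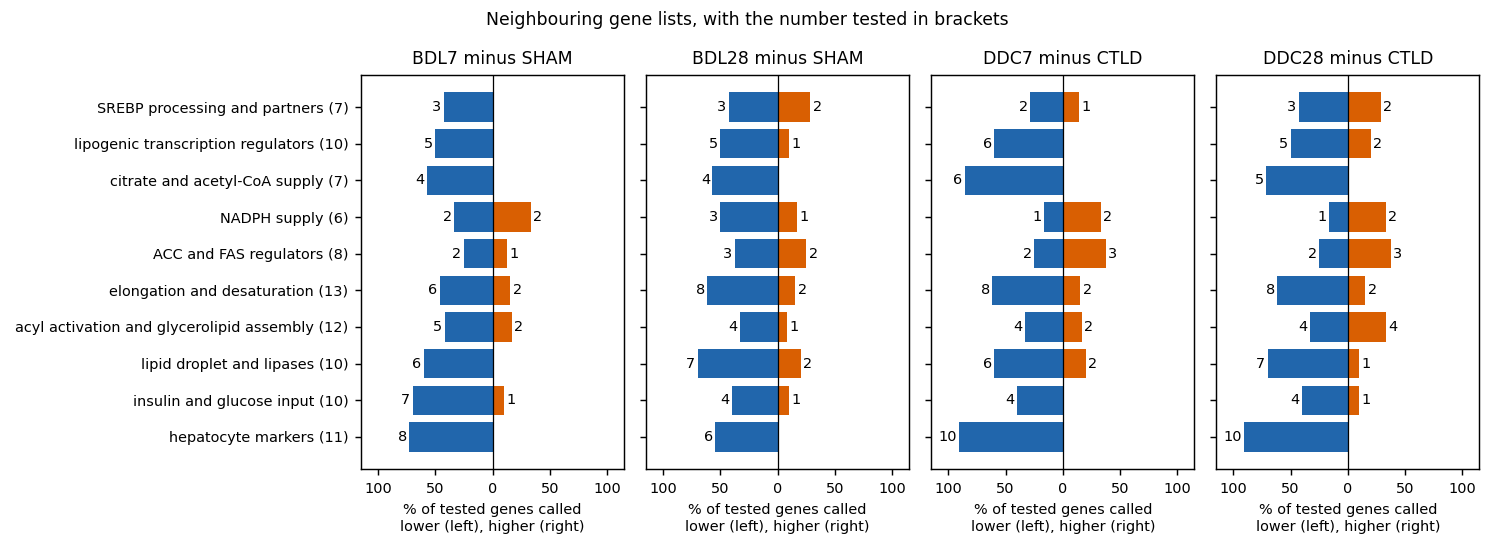
Share of the tested genes of 10 neighbouring lists called lower (blue, left) or higher (orange, right) in the ligation and DDC groups against their controls, with the number of genes beside each bar. Citrate and acetyl-CoA supply had 4 to 6 of 7 genes lower and 0 higher, and NADPH supply had calls in both directions.

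Genes that neighbour the pathway were counted in lists. Over all tested genes, 20.2%, 24.1%, 24.7% and 27.9% were higher and 18.5%, 22.7%, 22.1% and 24.7% lower in BDL7, BDL28, DDC7 and DDC28, and many of the list counts lie near those shares. Of 7 genes for SREBP processing and partners, 0, 2, 1 and 2 were higher and 3, 3, 2 and 3 lower in BDL7, BDL28, DDC7 and DDC28. Scap, the escort that carries SREBPs to the Golgi, was lower in each (-0.78, -0.61, -0.40 and -0.41 on the log2 scale). Its DDC7 and DDC28 calls were lost with total-count scaling (-0.05 in each). Mbtps2, a protease that releases SREBPs, was higher in BDL28 (0.88), DDC7 (1.07) and DDC28 (1.12). Insig1, which retains SREBPs in the endoplasmic reticulum and is itself an SREBP target, was lower in DDC7 (-1.35 ± 0.24, limma adjusted p = 4.16e-05) and DDC28 (-1.10 ± 0.24, adjusted p = 0.000345). Its log2 fold change was 0.23 in BDL7 and -0.29 in BDL28, not called. Srebf2, the paralog that drives cholesterol synthesis, was higher in BDL28 (0.71 ± 0.15, adjusted p = 0.000204). Of 10 other lipogenic regulators, 0, 1, 0 and 2 were higher and 5, 5, 6 and 5 lower. Mlxipl, which encodes ChREBP, averaged 167 ± 36.5 in BDL7 and 120.2 ± 13.3 in BDL28, against 338 ± 31.9 in SHAM, and 119.9 ± 23.1 in DDC7 and 91.5 ± 29.6 in DDC28, against 241 ± 76.3 in CTLD. Its log2 fold changes were -1.03, -1.48, -0.97 and -1.39. Nr1h3, the oxysterol receptor LXR alpha that activates Srebf1, had values of -0.50, -0.87, -0.54 and -0.95. The BDL7 and DDC7 calls of Nr1h3 were lost with total-count scaling (-0.17 and -0.19). Pparg was higher in BDL28 (1.70).

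The list for insulin and glucose input had 1, 1, 0 and 1 of 10 genes higher and 7, 4, 4 and 4 lower in BDL7, BDL28, DDC7 and DDC28. Pklr, the ChREBP target pyruvate kinase, had log2 fold changes of -1.58, -1.78, -1.58 and -1.15, and Khk, ketohexokinase, of -1.02, -1.10, -0.83 and -0.64. The DDC28 call of Khk was lost with total-count scaling (-0.28, adjusted p = 0.0771).

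Around the enzymes themselves, citrate and acetyl-CoA supply had 0 of 7 genes higher in all 4 groups and 4, 4, 6 and 5 lower. Acss2, which makes acetyl-CoA from acetate, had log2 fold changes of -0.84, -1.85, -1.01 and -1.27, and the citrate carrier Slc25a1 of -0.50, -0.99, -0.77 and -0.46. The Acss2 call in BDL7 was lost with total-count scaling (-0.52), with quantile normalization (-0.62) and without BDL7 replicate 1 or SHAM replicate 3, and those of Slc25a1 in BDL7 and DDC28 with total-count scaling (-0.18 and -0.10). NADPH supply beside Me1 had 2, 1, 2 and 2 of 6 genes higher and 2, 3, 1 and 1 lower. Pgd of the pentose phosphate pathway had log2 fold changes of 0.91, 0.54, 1.32 and 1.32, all called higher, while Me1 was lower in each. The BDL28 call of Pgd was lost without BDL28 replicate 1 (0.35, adjusted p = 0.15) or SHAM replicate 4 (0.46, adjusted p = 0.0834). Of 8 regulators of ACC and fatty acid synthase, 1, 2, 3 and 3 were higher and 2, 3, 2 and 2 lower, among them Prkab1, an AMPK subunit, at 0.79, 0.92, 0.73 and 1.17. Mid1ip1, the Thrsp paralog that activates ACC, was lower in DDC7 (-0.94 ± 0.26, limma adjusted p = 0.00342) and DDC28 (-0.62 ± 0.26, adjusted p = 0.0431). The DDC28 call of Mid1ip1 was lost without CTLD replicate 2, 3 or 4 or DDC28 replicate 1 or 4, with adjusted p of 0.0503 to 0.211 and a value of -0.39 without CTLD replicate 3. It was also lost with total-count scaling (-0.26), with quantile normalization, with no filter and in a fit of these groups alone (adjusted p of 0.0665 to 0.375). In the list for elongation and desaturation, 2 of 13 genes were higher in each group and 6, 8, 8 and 8 lower. Elovl2, an elongase of polyunsaturated chains, had log2 fold changes of -1.21, -1.32, -0.91 and -1.04. Elovl3, an elongase of saturated chains, averaged 2.46 ± 1.95 in BDL28, against 1692 ± 167 in SHAM, and 6.22 ± 4.62 in DDC28, against 2631 ± 156 in CTLD. Scd2, a relative of Scd1, had log2 fold changes of 3.69, 2.84, 1.74 and 2.61.

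Downstream, acyl activation and glycerolipid assembly had 2, 1, 2 and 4 of 12 genes higher and 5, 4, 4 and 4 lower. Acsl1, the main long-chain acyl-CoA synthetase of hepatocytes, had log2 fold changes of -2.07, -1.95, -1.89 and -1.95. Lipid droplet proteins and lipases had 0, 2, 2 and 1 of 10 genes higher and 6, 7, 6 and 7 lower. The monoglyceride lipase Mgll had log2 fold changes of -1.22, -1.64, -1.48 and -2.20, whereas the triglyceride lipase Pnpla2 was higher in BDL28 (1.14), DDC7 (0.86) and DDC28 (1.34). Of 12 genes of the fasting response, 1, 1, 3 and 2 were higher and 8, 6, 4 and 5 lower. Ppara, the receptor that drives fatty acid oxidation, had log2 fold changes of -1.21, -1.32, -1.68 and -1.23. Of 12 circadian clock genes, 3, 7, 4 and 7 were higher and 3, 2, 3 and 3 lower in these groups, so that the lower counts and both counts in BDL7 were close to the shares over all genes. In CsA7, where 1.88% of all genes were higher and 2.14% lower, 5 were higher and 4 lower. The clock output gene Dbp had log2 fold changes of 2.68, 1.98, 0.96 and 4.03 in the ligation and DDC groups and 5.83 in CsA7, called in each but DDC7, and its BDL28 call was lost without BDL28 replicate 1 (1.36, adjusted p = 0.0793). Npas2, a clock activator, had values of -1.83, -2.61, -0.91 and -2.22 in these groups and -4.18 in CsA7, likewise called in each but DDC7. The labels give no time of day or feeding state for collection, and the part of either in these results was not tested. In CsA7, 1 of 10 lipogenic regulators was higher, Ppargc1b (1.90 ± 0.32, limma adjusted p = 0.000441), and 1 lower, and in CsA28 0 genes of these lists were called.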

How the data were processed

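Reads per gene had been divided by 1 factor per library before the table was deposited, so its values are a normalized signal; dividing by the smallest step gave whole reads for 100% of 1063656 values, within 0.001. The submitters' processing notes name STAR 2.7.9a, UMI-tools 1.1.1, RSEM 1.3.1, DESeq2, the build GRCm39 and Trim Galore. Order, roles and strand settings: not given in the sources used here. Symbols came from GENCODE M21 (GRCm38) and matched 29121 of 29546 IDs. Genes with at least 10 in at least 4 libraries were tested with limma 3.58.1 (R 4.3.3) on log2(value + 1), with 1 coefficient for each of 9 groups over 36 libraries, trend and robust settings, 2-sided tests and Benjamini-Hochberg adjustment. With 4 libraries a group, precision is set by their spread. Alternatives were edgeR 4.0.16 and DESeq2 1.42.0 on the recovered reads, total-count scaling, quantile normalization, a pseudocount of 5, no filter, fits of the compared groups alone, a replicate block and leaving out each library; a shared reference of the 3 control groups was added after seeing the data. Scripts ran in Python 3.11.15. The statistics were tested on simulated data. All 10 members are named, with neighbouring genes from lists and the 5 profiles nearest to Srebf1 and to Fasn; examples from the lists were picked after their values were seen. The members and lists were chosen with earlier results of these data known. Promoters came from RefSeq (GRCm38.p6).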

Additional observations from a re-analysis of the deposited data

Results flagged for a closer look

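In sets of 4 libraries, 1 library stood apart from the other 3 in 4 of 81 sets by Dixon's criterion; chance alone does this in about 1 of 20. Fasn was 1113 in SHAM replicate 2, with the nearest library at 897. Acly was 611 in BDL7 replicate 2, with the nearest at 533. Srebf1 was 105 in DDC7 replicate 4, with the nearest at 136. Elovl6 was 1731 in CsA28 replicate 2, with the nearest at 609.7.

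The effects of ligation and of the DDC diet differed by limma's test of the difference for Srebf1 at day 7 (2.18, adjusted p = 0.000237) and day 28 (1.16, adjusted p = 0.0289), and for Fasn at day 7 (1.16, adjusted p = 0.0121) and in the change between days (-1.13, adjusted p = 0.0454). For Srebf1 a difference between the models was already known in these data when the gene was singled out. The Srebf1 difference at day 28 was 0.33 (adjusted p = 0.489) when BDL28 and DDC28 were set directly against each other, so it turned on SHAM and CTLD.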

How the results depend on the processing

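Among member effects that were called, the sign reversed for Scd1 with quantile normalization, to 0.13 in DDC7 and 0.12 in DDC28, and in no other alternative. Effects near 0 that were not called changed sign on leaving out 1 library, such as Acaca in DDC7 (-0.11 to 0.06) and the day 28 difference of Fasn (-0.12 to 0.14). The cause was not tested.

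Genes called changed by more than 1.5 times as follows. For the difference in day change, 186 became 496 with DESeq2, 303 with edgeR, 451 with quantile normalization, 109 with no filter and 51 in a fit of the compared groups alone. For the day 28 difference, 1295 became 645 in that fit, 593 against the shared reference and 731 with no filter. For the day 7 difference, 1065 became 464 against the shared reference and 666 with no filter. For CsA7, 507 became 259 in the fit of the groups alone, 1454 against the shared reference and 839 with total-count scaling. For CsA28, 3 became 71 with DESeq2, 114 against the shared reference, 10 with total-count scaling, and 0 in the fit of the groups alone, with a pseudocount of 5 and with quantile normalization. For CTLD against VEHICLE, 8 became 61 with DESeq2, 13 with edgeR, 4 with quantile normalization and 0 in the fit of the groups alone. That fit also gave 2443 for BDL28 against BDL7 (3871), 161 for CsA28 against CsA7 (308) and 1114 for DDC28 against DDC7 (718).

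Members called were 1 for the difference in day change, and 4 with DESeq2, 2 in the fit of the groups alone, with quantile normalization and with total-count scaling, and 0 with no filter and with the replicate block. They were 1 for the day 28 difference, and 3 with DESeq2, 2 with the replicate block and 0 with no filter or the shared reference; and 2 for the day 7 difference, and 4 in the fit of the groups alone. For CsA7 they were 2, and 5 with DESeq2, the shared reference and total-count scaling, and 1 with no filter. For CsA28 they were 0, and 4 with DESeq2 and 2 with the shared reference. For DDC28 they were 6, and 3 with quantile normalization; for DDC28 against DDC7 they were 3, and 1 with no filter. For SHAM against CTLD they were 1, and 2 in the fit of the groups alone; for SHAM against VEHICLE they were 2, and 0 in that fit and with no filter, and 1 with total-count scaling.

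Leaving out 1 library gave 30 to 1482 genes for the difference in day change, 849 to 2099 for the day 28 difference, 2573 to 4662 for BDL28 against BDL7, 0 to 46 for CTLD against VEHICLE, 127 to 352 for CsA28 against CsA7, 0 to 36 for CsA28, 228 to 489 for CsA7 and 351 to 791 for DDC28 against DDC7. Members then numbered 0 to 4 for the difference in day change, 0 to 3 for the day 28 difference, 0 to 1 for CsA28 against CsA7 and for CsA28, 1 to 4 for CsA7, 1 to 3 for DDC28 against DDC7, and 0 to 2 for SHAM against CTLD and against VEHICLE.

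Departures from the group means correlated at -0.131 to 0.149 between libraries of the same replicate number. Of these, 2 were above 0.1, for BDL28 against BDL7. The numbers are those of the sample descriptions, and pairing by the numbers in the sample titles was not tested. The replicate block ended the Fasn call in the change between days (adjusted p = 0.0544) and gave one for Me1 at day 28 (-0.88, adjusted p = 0.0400). With total-count scaling the share of calls that were higher was 66.4% for SHAM against CTLD (50.8% as scaled by the authors), 37.7% for CsA28 against CsA7 (56.2%), 36.4% for CTLD against VEHICLE (50%; 26.2% with DESeq2 and 30.8% with edgeR), 27.9% for the day 28 difference (45.6%), 28.8% for the difference in day change (40.9%) and 80.0% for CsA28 (33.3%). Depth limited Pnpla3 and Acacb in BDL28.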
